A study of Mus musculus with 15 samples.

Results

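The genes described here are 9 mouse genes of ZBP1 sensing, necroptosis and pyroptosis, namely Zbp1, Ripk1, Ripk3, Mlkl, Casp8, Casp1, Casp4, Gsdmd and Gsdme, chosen by gene symbol out of 34432 genes listed in each of the deposited normalized count tables. They were followed in CT26, a mouse colon carcinoma cell line grown in culture, by mRNA sequencing of 15 libraries in 5 groups of 3 replicates that the series describes as biological. The first experiment compared shPrmt1 with shControl. The shPrmt1 cells were a stable CT26 line carrying a doxycycline-inducible hairpin against Prmt1. The group shControl was labelled only as a control knockdown with no treatment entry. By the study's account the shPrmt1 cells were treated with doxycycline, and whether the shControl cells received it is not stated. Effects of doxycycline and of the hairpin therefore cannot be told apart in this experiment. The second experiment used CT26 cells of WT genotype in 3 arms, given Vehicle, given MS023 and given GSK3368715. MS023 and GSK3368715 were used as PRMT1 inhibitors, at the same concentration and for the same time by the study's methods although the labels give neither, and both were read against the same 3 Vehicle libraries. The comparisons ask whether loss or inhibition of PRMT1, an arginine methyltransferase, moved the transcripts of these cell death genes in tumor cells.

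ZBP1 is an interferon-inducible sensor that binds Z-form nucleic acids and engages the kinases RIPK1 and RIPK3 through a shared protein motif. RIPK3 phosphorylates MLKL, which then ruptures the plasma membrane in necroptosis, while caspase-8 cleaves RIPK1 and RIPK3 and holds that route back. In pyroptosis, the inflammatory caspases encoded by Casp1 and Casp4 cleave gasdermin D into a membrane pore, and gasdermin E forms a similar pore once a protease cleaves it.

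Prmt1 itself read 5601, 5717 and 5620 normalized counts in shControl and 669, 761 and 683 in shPrmt1, so that the hairpin libraries matched their labels (the mean fell by 87.5%, adjusted p = 3.79e-07). Its level under MS023 and GSK3368715 overlapped that of Vehicle (adjusted p = 0.351 and 0.914), which for catalytic inhibitors checks nothing. Adjusted p-values throughout are from limma, adjusted by the Benjamini-Hochberg method over all genes tested in a comparison, and a gene is called when its value is under 0.05. Of 11485 genes tested, 861 were called higher and 823 lower in shPrmt1. Of 13014 genes tested, MS023 had 1784 called higher and 1841 lower, and GSK3368715 had 672 and 582. With every library set to the same total, the higher share of the calls was 61.9% in place of 51.1% for shPrmt1 and 59.3% in place of 49.2% for MS023. Reads on genes ranged from 17284091 to 29233738 per library in the knockdown experiment and from 40119305 to 93697833 in the inhibitor experiment. The colon carcinoma label rested on few epithelial transcripts, since Epcam was listed at 0 in all 15 libraries and Cdh1 and Vil1 had 8 and 13 reads in total, whereas Krt18 and Krt20 were present. Krt18 moved with the groups, at 555 to 605 normalized counts in shControl and 378 to 462 in shPrmt1 (adjusted p = 0.0307), and 872 to 1018 in Vehicle, 1305 to 1414 with MS023 (adjusted p = 0.000685) and 1066 to 1188 with GSK3368715 (adjusted p = 0.0489). Its part in the results was not tested. Of 8 leukocyte markers, Cd3e was listed at 0 and Adgre1 had 2 reads, and their summed level lay between 1.39 and 4.92 RPM (reads per 1000000 reads on genes), most of it Cd68. In a list of 6 fibroblast and endothelial markers, with most of the sum from Col1a1 and Cdh5 at 2 reads in total, members moved with the groups in different directions. Pdgfrb was called higher in shPrmt1, with MS023 and with GSK3368715 (0.69, 0.40 and 0.64 on the log2 scale), and Col1a1 was called higher in shPrmt1 (0.97) and lower with MS023 (-0.52). Its summed level was 112 to 142 RPM in shControl, 174 to 269 in shPrmt1, 351 to 357 in Vehicle, 241 to 314 in MS023 and 345 to 383 in GSK3368715, and its part in the results was not tested.

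Zbp1, the sensor, rose in all 3 comparisons and moved furthest of the 9 genes. Zbp1 (ENSMUSG00000027514) lies on the minus strand of chr2:173206612-173218923 (mm10). The shControl libraries held 32.6, 30.2 and 49.8 normalized counts and the shPrmt1 libraries 135, 158 and 178. Every shPrmt1 library thus stood far above every shControl library. The means were 37.5 ± 10.7 and 157 ± 21.4 (SD, n = 3 each), a rise of 2.06 ± 0.22 (SE) on the log2 scale (adjusted p = 0.000788). In the inhibitor experiment the Vehicle libraries held 1954, 983 and 1404 normalized counts, the MS023 libraries 2933, 3032 and 3342, and the GSK3368715 libraries 2695, 3476 and 2603. All 6 inhibitor libraries stood above the highest Vehicle library, although the Vehicle libraries differed among themselves by close to the size of the effect. The rise on the log2 scale was 1.15 ± 0.20 (SE) for MS023 (adjusted p = 0.00218) and 1.06 ± 0.20 for GSK3368715 (adjusted p = 0.0104). Leaving out Vehicle replicate 2, the lowest, gave 0.90 and 0.81, the smallest values over the libraries left out, and Zbp1 was called each time. In these bulk libraries, more cells expressing Zbp1 and more Zbp1 RNA per cell cannot be told apart. The knockdown call rests on few reads, 37 to 45 per shControl library and 118 to 174 per shPrmt1 library.

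The starting level of Zbp1 differed between the experiments. In RPM, shControl held 1.77 ± 0.51 and shPrmt1 7.57 ± 1.02, whereas Vehicle held 24.1 ± 8.31 (SD, n = 3 each). The highest shPrmt1 library, at 8.62 RPM, stayed below the lowest Vehicle library, at 16.2. The same ordering held for Casp4, with 0.65 ± 0.09 RPM in shControl, 2.32 ± 0.26 in shPrmt1 and 5.83 ± 2.18 in Vehicle. The 2 experiments were normalized apart and shared no library, so that these levels are set side by side without a test, and the hairpin line, the experiment and its handling cannot be told apart as sources of the gap.

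**Figure D1:**
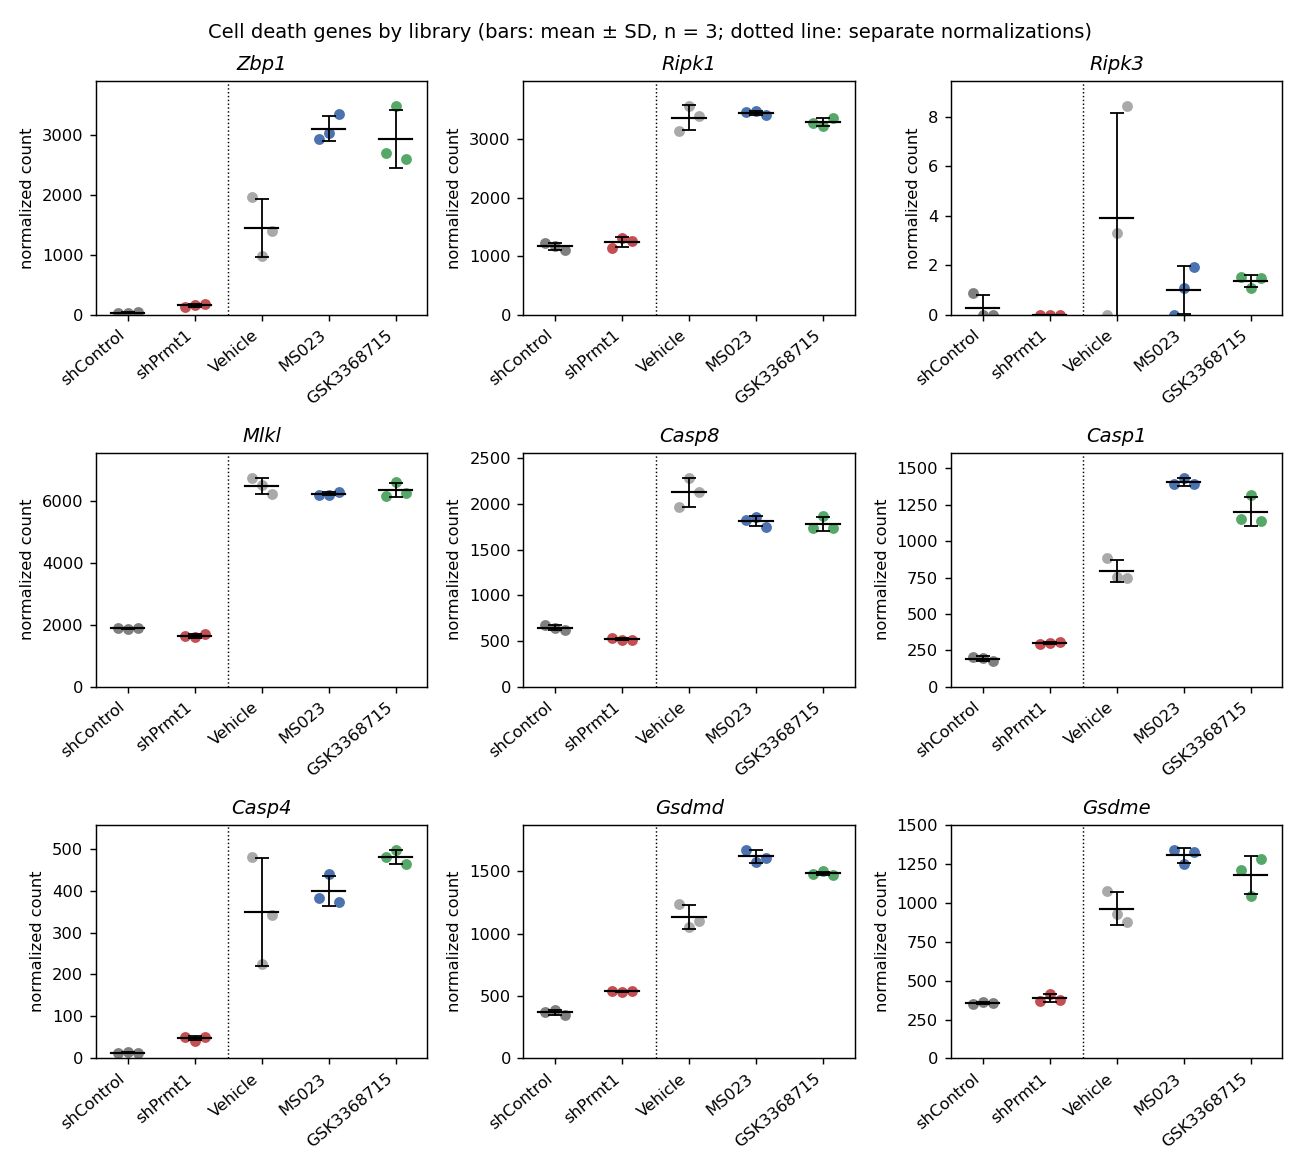
Normalized counts of the 9 genes (vertical axis, starting at 0) in each of the 15 libraries, grouped along the horizontal axis, with bars for the mean ± SD of 3 libraries and a dotted line between the separately normalized experiments. Zbp1 stood at 30.2 to 49.8 in shControl and 135 to 178 in shPrmt1, all 6 inhibitor libraries stood above the 3 Vehicle libraries, and Ripk3 did not exceed 8.44 in any library.

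Of the kinases that ZBP1 engages, Ripk1 did not follow Zbp1 at the transcript level, and Ripk3 was too low to test. Ripk1 (chr13:34002363-34037147, plus strand), the scaffold kinase of the death receptor and necroptosis complexes, held 1232, 1167 and 1105 normalized counts in shControl and 1148, 1315 and 1261 in shPrmt1. Its groups overlapped there and under both inhibitors, with log2 fold changes of 0.09 (95% interval -0.09 to 0.27), 0.04 (-0.09 to 0.16) and -0.03 (-0.16 to 0.09) for shPrmt1, MS023 and GSK3368715. Ripk1 was called under none of the alternative settings tried. Its annotated exons share 241 bases with the antisense gene Serpinb6a and 511 bases with the same-strand pseudogene Gm17084, and the strand setting of the counting is not given in the sources used here. Ripk3, the kinase that phosphorylates MLKL, was close to silent. Only 19 reads fell on Ripk3 over all 15 libraries, 7 of them in Vehicle replicate 3 and 4 in Vehicle replicate 2, and no shPrmt1 library had a read. At their depth, 0 reads in a shPrmt1 library still allow up to 0.149 to 0.174 RPM (3 reads per library, counting error only). Ripk3 did not pass the filter of 10 normalized counts in 3 libraries and was not tested.

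Mlkl, the pore-forming executioner of necroptosis (chr8, minus strand), was the most abundant of the 9 per transcript length in every group and moved little. The shControl libraries held 1887, 1870 and 1887 normalized counts and the shPrmt1 libraries 1631, 1594 and 1714. The shPrmt1 libraries were all lower, yet the difference of -0.19 ± 0.06 (SE) on the log2 scale did not pass the test (adjusted p = 0.0686). It did pass with DESeq2 (adjusted p = 0.0463), without shPrmt1 replicate 2 (adjusted p = 0.0422) and under a replicate block (adjusted p = 0.0486), 3 of 16 alternatives. Under MS023 and GSK3368715 the Mlkl groups overlapped those of Vehicle, with log2 fold changes of -0.06 and -0.03 (adjusted p = 0.426 and 0.725).

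Casp8, the protease that restrains necroptosis and starts apoptosis (chr1:58795374-58847503, plus strand), was the 1 gene of the 9 that was called lower, and it was so in each comparison with a control. It held 670, 647 and 621 normalized counts in shControl and 530, 512 and 513 in shPrmt1. In the inhibitor experiment the Vehicle libraries held 1966, 2287 and 2131, the MS023 libraries 1827, 1858 and 1751, and the GSK3368715 libraries 1734, 1867 and 1733. The treated libraries were below every control library in each case, by a small margin. The means fell by 19.7% in shPrmt1 (-0.32 ± 0.07 SE on the log2 scale, adjusted p = 0.0259), by 14.8% under MS023 (-0.23 ± 0.07, adjusted p = 0.0287) and by 16.5% under GSK3368715 (-0.26 ± 0.07, adjusted p = 0.0389). The last 2 values share their Vehicle libraries. These calls were close to the threshold. In shPrmt1, Casp8 stayed called only without shPrmt1 replicate 2, and leaving out shControl replicate 1, 2 or 3 or shPrmt1 replicate 1 or 3 gave adjusted p = 0.126, 0.0891, 0.0776, 0.0514 and 0.0763. For MS023 the call was lost without Vehicle replicate 2 (0.0831) or 3 (0.076) or without MS023 replicate 1 (0.0662), 2 (0.0587) or 3 (0.0992). For GSK3368715 it held only without Vehicle replicate 1 or GSK3368715 replicate 2, and leaving out any of the other libraries gave adjusted p from 0.0582 to 0.109. The GSK3368715 call was also lost with no filter on low values (0.0525), without the variance trend (0.0594) and with only Vehicle and GSK3368715 in the fit (0.0973). The log2 fold change stayed between -0.34 and -0.18 in all of the fits with a library left out.

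Casp1, the protease of the inflammasome (chr9:5298517-5307265, plus strand), rose in every comparison with a control. The shControl libraries held 207, 197 and 175 normalized counts and the shPrmt1 libraries 296, 297 and 306. The groups stood apart, 0.64 ± 0.10 (SE) apart on the log2 scale (adjusted p = 0.00588). The Vehicle libraries held 884, 754 and 749, the MS023 libraries 1391, 1435 and 1395, and the GSK3368715 libraries 1152, 1316 and 1138. MS023 and GSK3368715 libraries were again all above Vehicle, by 0.83 (adjusted p = 0.000127) and 0.60 (adjusted p = 0.00285) on the log2 scale with a standard error of 0.08 each. Casp1 was called under all 16 alternatives in the knockdown experiment and all 20 for each inhibitor.

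Casp4 (chr9:5308828-5336783, plus strand), whose product senses cytosolic bacterial lipopolysaccharide, is the next gene along from Casp1. It was called in shPrmt1 and not under either inhibitor. The shControl libraries held 13.2, 15.8 and 12.2 normalized counts and the shPrmt1 libraries 51.4, 42.4 and 50.02, a rise of 1.74 ± 0.23 (SE) on the log2 scale (adjusted p = 0.00243). These values come from 11 to 22 reads per shControl library and 35 to 49 per shPrmt1 library. The Vehicle libraries held 480, 224 and 342, the MS023 libraries 383, 439 and 373, and the GSK3368715 libraries 481, 497 and 463. Vehicle replicate 1 alone was as high as the GSK3368715 libraries, and Vehicle replicates 2 and 3 were below every treated library. The log2 fold changes were 0.25 for MS023 (95% interval -0.22 to 0.72, adjusted p = 0.414) and 0.53 for GSK3368715 (0.06 to 1.00, adjusted p = 0.147). Without Vehicle replicate 1 they were 0.52 (adjusted p = 0.0377) and 0.79 (0.0149), both called, and without Vehicle replicate 2 they were -0.03 (0.896) and 0.24 (0.299). The difference between the knockdown and inhibitor values of Casp4 was not tested. The 3 Vehicle libraries had the same order for Casp4, Zbp1 and the interferon-induced gene Ifit3 (3037, 1750 and 2518 normalized counts in replicates 1, 2 and 3). Ifit3 was picked for its likeness to Zbp1 over these same libraries, so the order it shares with Zbp1 is not separate evidence.

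The windows around the starts of Casp1 and Casp4 are shown because both genes rose in shPrmt1 and lie next to each other. RefSeq promoter windows (GRCm38.p6, 250 bases before to 50 after the start, 5′ to 3′ on the gene's strand) were found for 7 of the 9 genes, and none was found for Zbp1 or Gsdmd. Casp4 had 2 windows, of which the first is shown, and the second spans chr9:5308610-5308909.
Casp1, chr9:5298267-5298566, plus strand: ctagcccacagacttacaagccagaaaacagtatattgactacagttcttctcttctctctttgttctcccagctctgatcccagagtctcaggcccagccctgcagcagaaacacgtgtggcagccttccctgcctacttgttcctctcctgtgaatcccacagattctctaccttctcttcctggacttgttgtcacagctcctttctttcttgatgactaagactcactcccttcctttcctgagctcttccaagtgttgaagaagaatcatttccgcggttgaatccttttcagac
Casp4, chr9:5308599-5308898, plus strand: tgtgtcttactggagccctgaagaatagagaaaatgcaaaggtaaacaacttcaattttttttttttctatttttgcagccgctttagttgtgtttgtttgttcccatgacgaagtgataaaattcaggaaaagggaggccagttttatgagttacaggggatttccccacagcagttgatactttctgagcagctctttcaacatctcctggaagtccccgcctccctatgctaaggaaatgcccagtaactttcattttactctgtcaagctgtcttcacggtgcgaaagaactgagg

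Gsdmd, the pore-forming substrate of the inflammatory caspases (chr15:75862327-75867408, plus strand), rose in every comparison with a control. The shControl libraries held 373, 390 and 352 normalized counts and the shPrmt1 libraries 540, 533 and 543. The Vehicle libraries held 1239, 1052 and 1102, the MS023 libraries 1674, 1576 and 1611, and the GSK3368715 libraries 1482, 1500 and 1472. In each comparison every treated library was above every control library. The log2 fold changes were 0.54 in shPrmt1 (adjusted p = 0.00433), 0.52 under MS023 (adjusted p = 0.000508) and 0.40 under GSK3368715 (adjusted p = 0.0071), with standard errors of 0.08, 0.07 and 0.07. Gsdmd was called under every alternative tried.

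Gsdme, the gene of gasdermin E (chr6:50188888-50263862, minus strand), was called only under MS023. The shControl libraries held 350, 364 and 358 normalized counts and the shPrmt1 libraries 369, 417 and 378. The shPrmt1 values were all higher, but the difference of 0.12 ± 0.09 (SE) on the log2 scale did not pass the test (adjusted p = 0.401). The Vehicle libraries held 1080, 930 and 877, the MS023 libraries 1343, 1250 and 1325, and the GSK3368715 libraries 1212, 1045 and 1282. MS023 stood clear of Vehicle by 0.45 ± 0.10 (SE) on the log2 scale (adjusted p = 0.00675). GSK3368715 replicate 2 fell below Vehicle replicate 1, and the log2 fold change of 0.29 was not called (adjusted p = 0.0821). It was called with DESeq2 (0.0401), without Vehicle replicate 1 (0.38, adjusted p = 0.0322) and without GSK3368715 replicate 2 (0.38, adjusted p = 0.0452).

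**Figure D2:**
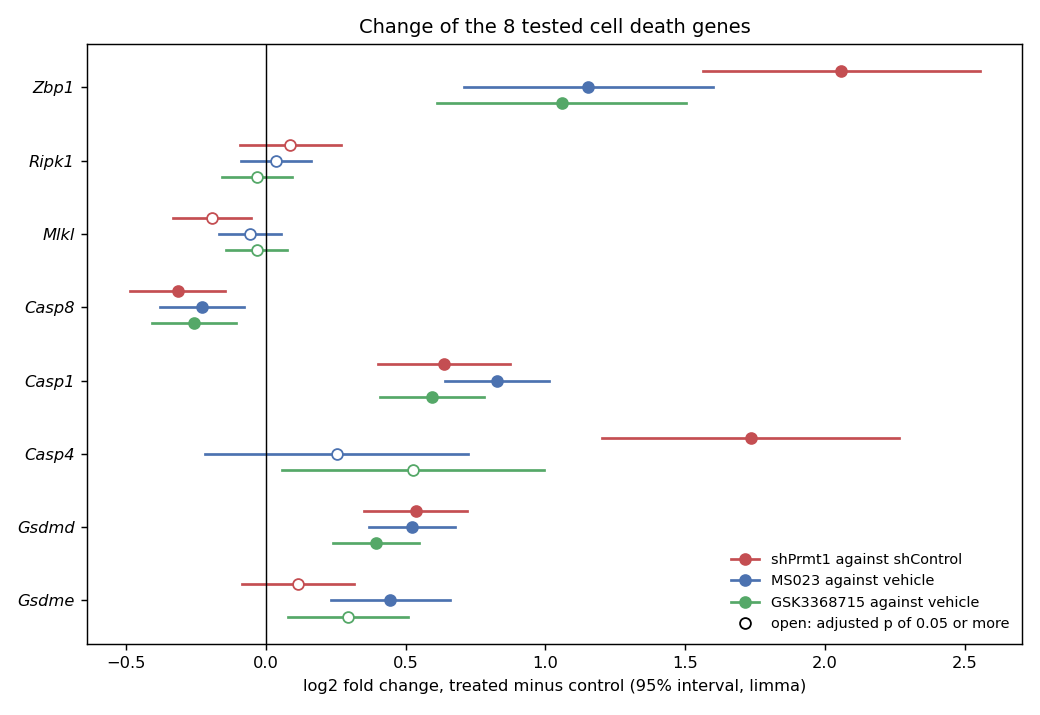
Log2 fold change of the 8 tested genes (horizontal axis, treated minus control, limma) with 95% intervals, 1 color per comparison and open points where the adjusted p was 0.05 or more. Zbp1 lay at 2.06, 1.15 and 1.06, Casp8 at -0.32, -0.23 and -0.26, and the Ripk1 intervals all spanned 0.

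Counted over the 8 genes tested, 4 were called higher and 1 lower in shPrmt1, where 7.5% of all genes tested were called higher, 7.17% lower and 14.7% in either direction. With MS023, 4 were called higher and 1 lower, where 13.7% of all genes were called higher, 14.1% lower and 27.9% in either direction. With GSK3368715, 3 were called higher and 1 lower, where 5.16% of all genes were called higher, 4.47% lower and 9.64% in either direction. The control and treated libraries did not overlap for 7 of the 8 genes in shPrmt1 (38% of all genes), for 5 under MS023 (44.5%) and for 4 under GSK3368715 (27.7%). The median log2 fold change of the 8 genes was 0.33, 0.35 and 0.34, beside medians within 0.01 of 0 over all genes tested. Genes called under both inhibitors share the Vehicle libraries and are not separate evidence. These genes were chosen with earlier results of these data known, so the counts describe them and are not a test.

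The inhibitors were not told apart on these genes. None of the 8 was called between GSK3368715 and MS023, where 0.515% of all genes were called (67 of 13014, and 1722, or 13.2%, at an unadjusted p under 0.05), and none was called by DESeq2 or edgeR. Zbp1 differed by -0.10 on the log2 scale (GSK3368715 minus MS023, 95% interval -0.54 to 0.35). Casp1 had the lowest p of the 8. All 3 GSK3368715 libraries were below all 3 MS023 libraries for Casp1, a difference of -0.23 (95% interval -0.42 to -0.04, adjusted p = 0.276). Libraries were also apart for Ripk1 and Gsdmd, both lower with GSK3368715 at -0.07 (-0.19 to 0.06) and -0.13 (-0.28 to 0.03), and for Casp4, higher at 0.27 (-0.20 to 0.74), among 21.4% of all genes. The intervals of Mlkl (-0.09 to 0.13), Casp8 (-0.18 to 0.12) and Gsdme (-0.36 to 0.06) also spanned 0, and a miss does not show that the compounds act alike.

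Levels of different genes were compared as RPM per kilobase of the principal annotated transcript, as group means with SD over 3 libraries. Mlkl led in all 5 groups, from 40.3 ± 1.80 in shPrmt1 to 54.8 ± 2.37 in Vehicle. In shControl it was followed by Casp8 (11.8 ± 0.39), Gsdmd (9.81 ± 0.52), Ripk1 (8.53 ± 0.42), Gsdme (6.75 ± 0.17) and Casp1 (6.09 ± 0.50), with the last 2 within their spread. Zbp1 (0.89 ± 0.26), Casp4 (0.45 ± 0.06) and Ripk3 (0.0073 ± 0.013) came last. In shPrmt1, Gsdmd moved ahead of Casp8 (14.5 ± 0.29 against 9.70 ± 0.29), and Casp8, Casp1 and Ripk1 lay within their spread of each other, while Zbp1, at 3.81 ± 0.51, stayed below Gsdme (7.49 ± 0.40). In Vehicle the neighbours from Casp8 (13.7 ± 0.92) through Zbp1 (12.1 ± 4.18), Gsdmd (10.5 ± 0.98) and Casp1 (8.86 ± 0.91) to Ripk1 (8.64 ± 0.49) overlapped in their SD. With either inhibitor Zbp1 stood second to Mlkl, at 26.6 ± 1.80 for MS023 and 24.7 ± 4.06 for GSK3368715. Casp1 and Gsdmd were next and within their spread, at 16.0 ± 0.28 and 15.4 ± 0.49 for MS023 and 13.5 ± 1.11 and 13.9 ± 0.15 for GSK3368715. Below them Casp8 (11.96 ± 0.37 and 11.6 ± 0.50) was clear of its neighbours, Ripk1 and Gsdme overlapped in their SD, and Casp4 (4.73 ± 0.42 and 5.63 ± 0.22) and Ripk3 (0.0091 ± 0.0087 and 0.0121 ± 0.0022) came last.

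**Figure D3:**
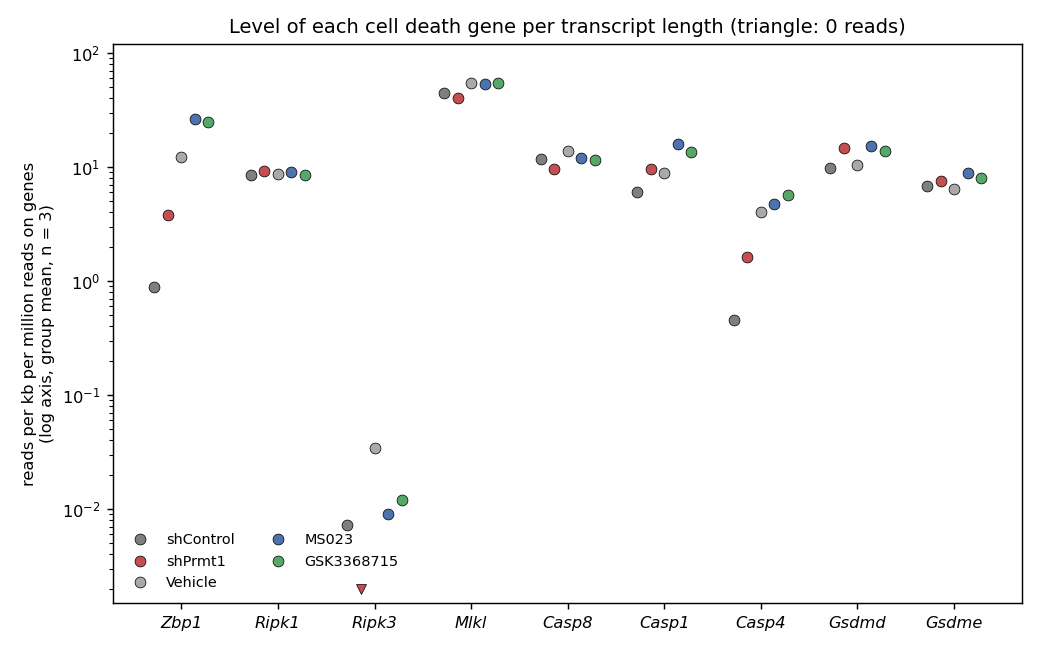
Group mean level of each of the 9 genes in RPM per kilobase of principal transcript (vertical log axis, n = 3 libraries per point), with a triangle for a group at 0 reads. Mlkl lay between 40.3 and 54.8 in all groups, Zbp1 ran from 0.89 in shControl to 26.6 with MS023, and Ripk3 stayed at or below 0.0344.

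The genes whose profile over libraries was most like that of Zbp1 were ranked by Pearson's r on log2 values, as a description that the shared contrast between groups dominates. Over the 9 inhibitor libraries these were Oas1a (0.994), Tmem176a (0.994), Gbp3 (0.993), Lgals3bp (0.993) and Ifit3 (0.993). Among the cell death genes, Gsdmd (0.949), Casp1 (0.939), Gsdme (0.782) and Casp4 (0.765) ran with Zbp1 in those libraries, and Casp8 (-0.901) ran opposite. Gsdmd, Casp1, Gsdme and Casp4 ranked only 136, 185, 1150 and 1264 of 11399 genes, so many other genes were closer to Zbp1. Over the 6 knockdown libraries the 5 most alike were N4bp1 (0.996), Wdr7 (0.994), Glul (0.994), Cndp2 (0.994) and Cd276 (0.994). There Gsdmd (0.929) and Casp1 (0.910) ranked 426 and 562 of 10289 genes, Gsdme had 0.718 and Ripk1 0.461, and Casp8 (-0.991) and Mlkl (-0.900) ran opposite. Casp4 was not ranked in the knockdown libraries, since neither group mean reached 50 normalized counts.

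The wider pathway was read from 8 lists of 81 genes. The lists were chosen with earlier results of these data known, so the shares called describe them and are not a test. In shPrmt1, 6 were called higher and 4 lower of 56 tested (17.9%, against 14.7% of all genes), with MS023 17 higher and 8 lower of 60 (41.7% against 27.9%), and with GSK3368715 8 higher and 2 lower of 60 (16.7% against 9.64%). The list of death receptor ligands and receptors had 2 of 6 tested called higher in shPrmt1, 5 of 8 with MS023 and 3 of 8 with GSK3368715, and none lower. Tlr3, the endosomal receptor for double-stranded RNA that can signal to RIPK1 and RIPK3, held 240, 309 and 370 normalized counts in shControl and 517, 530 and 577 in shPrmt1. It rose in all 3 comparisons, by 0.84, 0.53 and 0.64 on the log2 scale (adjusted p = 0.00874, 0.000995 and 0.00141). Tnfsf10, the TRAIL death ligand, held 56.2, 58.6 and 73.6 normalized counts in Vehicle, 138, 108 and 120 with MS023 and 160, 218 and 152 with GSK3368715. Both inhibitor groups stood above Vehicle for Tnfsf10 (log2 fold changes 0.95 and 1.47, adjusted p = 0.00357 and 0.0014), and it was too low to test in the knockdown experiment. Tnfrsf10b, the mouse TRAIL receptor, was called higher in shPrmt1 (0.48, adjusted p = 0.00497) and with MS023 (0.19, adjusted p = 0.0221), and not with GSK3368715 (0.14, adjusted p = 0.116). Tnfrsf1b, a TNF receptor, was called higher with MS023 (0.40) and GSK3368715 (0.34). Tnfrsf1a, the TNF receptor with a death domain, and Ticam1, the adaptor of Tlr3, were called in no comparison, and Tnf, the ligand, had 2 reads over all libraries. Fas was called higher with MS023 (1.03, adjusted p = 0.0251), but at 31.0 to 38.7 normalized counts against 13.2 to 19.3 the Fas call was lost without Vehicle replicate 2 (0.90, adjusted p = 0.0676) or without MS023 replicate 1 (0.93, 0.0865), 2 (1.07, 0.0607) or 3 (1.09, 0.0563).

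Among 20 adaptors and brakes of the RIPK1 and caspase-8 complex, none was called higher and 2 were called lower of 19 tested in shPrmt1, 3 higher and 6 lower with MS023, and 2 higher and 1 lower with GSK3368715. Of all genes tested, 14.7%, 27.9% and 9.64% were called in either direction in these comparisons. Cflar, which encodes the caspase-8 partner FLIP and lies beside Casp8 on chromosome 1 (chr1:58711508-58758884), was lower in each. Cflar held 4377, 4330 and 4269 normalized counts in shControl and 3784, 3577 and 3901 in shPrmt1 (log2 fold change -0.21, adjusted p = 0.0483). It held 12892, 13225 and 12964 in Vehicle, 8879, 9220 and 9238 with MS023 and 10798, 10668 and 10968 with GSK3368715. The 3 inhibitor experiment groups did not overlap, with MS023 lowest (-0.52 against Vehicle, adjusted p = 4.75e-05) and GSK3368715 between (-0.27, adjusted p = 0.00488). The shPrmt1 call of Cflar held only without shPrmt1 replicate 2, with adjusted p from 0.0763 to 0.182 when any of the other 5 libraries was left out, while both inhibitor calls held under all 20 alternatives. Tnfaip3, the ubiquitin-editing enzyme A20, held 2659, 2490 and 2320 normalized counts in Vehicle, 1669, 1696 and 1832 with MS023 and 2237, 2428 and 2326 with GSK3368715. Tnfaip3 was called lower with MS023 (-0.52, adjusted p = 0.00043) and not with GSK3368715 (-0.09, adjusted p = 0.419). In shPrmt1 it was higher in every library at 608, 719 and 609 against 559, 531 and 548, a difference of 0.24 that was not called (adjusted p = 0.116). Fadd, the adaptor that recruits caspase-8, was called in no comparison.

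Adar, whose product edits double-stranded RNA and limits ZBP1 ligands, was called higher in shPrmt1 (0.44, adjusted p = 0.00272), with 2321, 2198 and 2330 normalized counts against 1712, 1652 and 1686. With MS023 and GSK3368715 every library was above Vehicle for Adar, and the log2 fold changes of 0.17 and 0.20 were not called (adjusted p = 0.0603 and 0.0568).

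Upstream of caspase-1, levels of the inflammasome genes ranged widely. Of 16 sensors, adaptors and partners 10 were tested, with 1 higher and 1 lower in shPrmt1, 4 higher and 1 lower with MS023, and 1 lower with GSK3368715. The shares of all genes called in either direction were 14.7%, 27.9% and 9.64%. Pycard, the adaptor ASC that links most sensors to caspase-1, had 8 reads over all 15 libraries, 6 of them in shControl replicate 3. Nlrc4 had 2 reads and Mefv was listed at 0. Nlrp3, a sensor of cell damage, did not exceed 85.5 normalized counts in a library and was called in no comparison, and neither was Aim2, the cytosolic DNA sensor, which reached 1778, or Naip2, a sensor of bacterial proteins, which reached 2298. Txnip, a binding partner reported for NLRP3 and a regulator of redox state and glucose uptake, was called higher in shPrmt1 (1.19, adjusted p = 0.000104) and with MS023 (0.93, adjusted p = 0.0109). Txnip was not called with GSK3368715, although each library (13139, 23482 and 12775 normalized counts) was above every Vehicle library (11468, 7036 and 9567). Dpp9, a protease that restrains NLRP1, was called lower in shPrmt1 (-0.54, adjusted p = 0.00471). For Dpp9 the GSK3368715 libraries (7060, 6539 and 7497 normalized counts) overlapped those of Vehicle (7021, 7530 and 6708). All MS023 libraries were below Vehicle for Dpp9, at 6345, 6197 and 6689. Dpp8, from the same list, was below every Vehicle library with both inhibitors, while its knockdown groups overlapped. Dpp8 held 9041 to 9393 in Vehicle, 7703 to 8071 with MS023 and 7833 to 8033 with GSK3368715. The cytokines that caspase-1 matures were nearly silent, with 8 reads for Il1b and 6 for Il18 over all libraries, and Il1a had 19. Of the other 8 gasdermins, Gsdmc4 had 184 reads in all libraries together and each of the rest had 15 or fewer.

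Casp12, an inflammatory caspase gene that follows Casp4 on chromosome 9 (chr9:5345430-5373032), held 15.8, 17.3 and 23.2 normalized counts in shControl and 77.7, 55.8 and 65.3 in shPrmt1. It held 297, 257 and 289 in Vehicle, 674, 677 and 623 with MS023 and 559, 604 and 476 with GSK3368715. Casp12 rose in every comparison with a control, by 1.77, 1.23 and 0.95 on the log2 scale (adjusted p = 0.00234, 5.12e-05 and 0.000866), and held under every alternative tried.

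Downstream of the pores, Ninj1, which drives the final plasma membrane rupture, was called in no comparison. Hmgb1, an alarmin released from dying cells, was called lower with MS023 (-0.25, adjusted p = 0.0114). In shPrmt1 neither gene was called, although every library was below every shControl library for both. Ninj1 held 383 to 404 normalized counts there against 456 to 512 in shControl, and Hmgb1 held 22919 to 26595 against 27351 to 32463. None of 10 tested genes of the ESCRT-III machinery, which repairs gasdermin and MLKL pores, was called in any comparison. Of all genes, 14.7%, 27.9% and 9.64% were called in shPrmt1, with MS023 and with GSK3368715, so few calls were to be had among 10. In shPrmt1 the groups did not overlap for 3 of them in the higher and 3 in the lower direction, beside 38% of all genes.

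**Figure D4:**
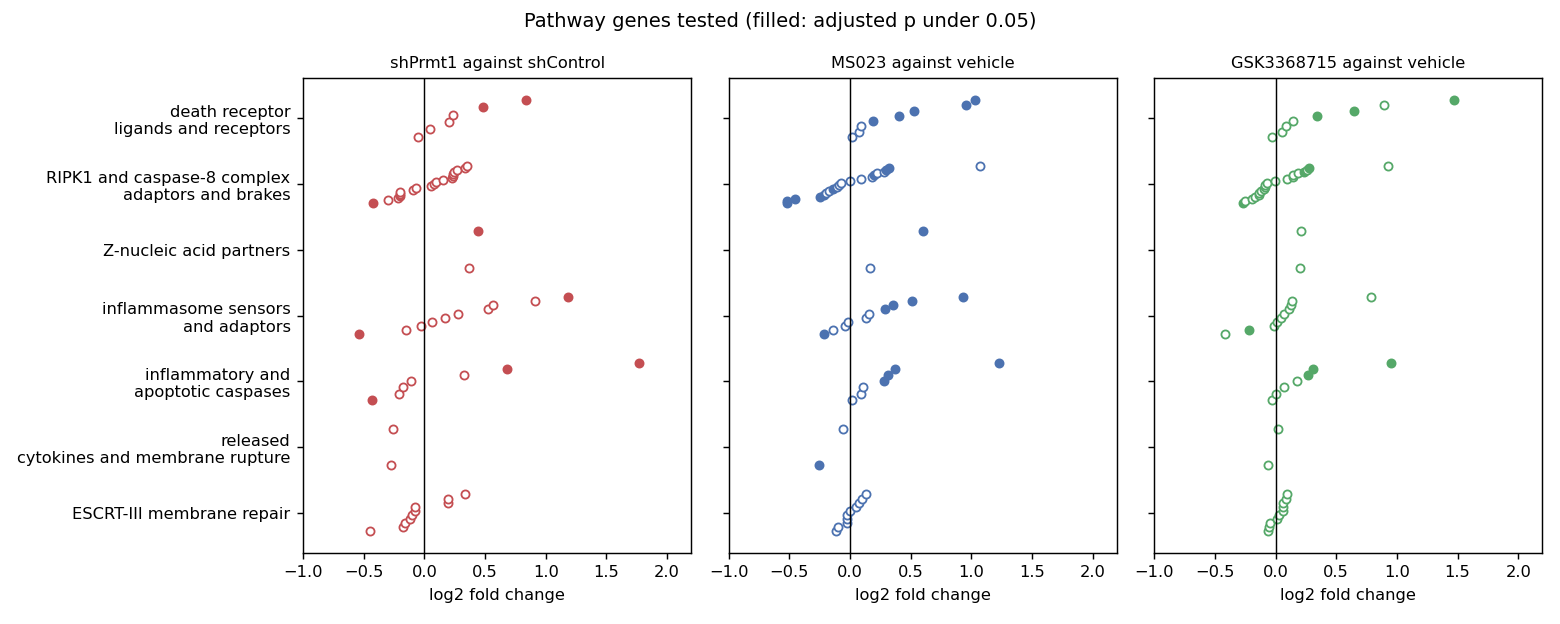
Log2 fold change against control (horizontal axis, limma) of each tested pathway gene, 1 point per gene in rows by list and 1 panel per comparison, filled where the adjusted p was under 0.05. All ESCRT-III points are open, Casp12 is the rightmost caspase in each panel at 1.77, 1.23 and 0.95, and Tnfsf10 is the rightmost point of the GSK3368715 panel at 1.47.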

How the data were processed

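mRNA libraries made from total RNA of CT26 cells were sequenced paired-end by the authors, and reads were quantified on mm10 with Salmon 1.4.0. The signal values deposited by the authors are gene counts divided by a DESeq2 size factor for each library, in 1 table per experiment, so that tests stayed within a table. The deposited tables of the authors' own comparisons hold fold changes and p-values and were not used. All values were whole multiples of 1 read per library within 0.01 (100%), which gave the reads on genes for each library, and floors of 3 reads cover counting error only.

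Differences were tested with limma 3.58.1 in R 4.3.3 (moderated variance with a trend, two-sided) on log2(normalized count + 1) for genes that reached a normalized count of 10 in 3 or more libraries of the fit, with Benjamini-Hochberg adjustment over all genes tested and a threshold of 0.05. Fold changes are on that scale, which understates changes of low genes. The knockdown fit held 6 libraries and the inhibitor fit all 9, which share 1 estimate of the spread. The code was tested on simulated data. The 95% intervals of log2 differences come from the same fits. The series calls the 3 replicates of a group biological, but no label names separate cultures, so p-values measure the spread between these samples, which may be technical. Count tests on the recovered reads with edgeR 4.0.16 called 1712, 3620, 1242 and 69 genes for shPrmt1, MS023, GSK3368715 and GSK3368715 against MS023. DESeq2 1.42.0, other pseudocounts, filters and scalings, a replicate block and leaving out each library were also tried.

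The 9 genes and the pathway lists were chosen with earlier results of these data known. Beside the 9 genes and Prmt1, the genes named were chosen pathway genes whatever they did (some are not reported here), up to 3 further called genes per list and comparison with the largest change (group mean of 50 or more in the higher group), and the 5 genes most like Zbp1 in each table; Naip2 and others named at low read counts or as markers were chosen after their values were seen. Promoter sequences are from RefSeq (GRCm38.p6), and neither motifs nor protein sequences were used here.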

Additional observations from a re-analysis of the deposited data

Results flagged for a closer look

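Cflar and Tnfaip3 were singled out because the inhibitors differed in their effect by a test of the difference itself. Cflar was higher with GSK3368715 than with MS023 by 0.25 on the log2 scale (limma, adjusted p = 0.0389), at 10811 ± 151 against 9112 ± 203 normalized counts (SD, n = 3 each). The Cflar call was lost in 11 of 20 alternatives. These were no filter on low values (adjusted p = 0.0603), the same total in every library (0.0511), no variance trend (0.0779), the replicate block (0.108), and leaving out Vehicle replicate 3 (0.0833), GSK3368715 replicate 1, 2 or 3 (0.109, 0.112 and 0.144) or MS023 replicate 1, 2 or 3 (0.167, 0.156 and 0.143). Tnfaip3 was higher with GSK3368715 than with MS023 by 0.43 (limma, adjusted p = 0.0287). The Tnfaip3 call was lost in 8 of 20 alternatives, namely no variance trend (0.0743), the replicate block (0.0953), and leaving out GSK3368715 replicate 1, 2 or 3 (0.0731, 0.113 and 0.0912) or MS023 replicate 1, 2 or 3 (0.142, 0.138 and 0.0741).

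Tnfaip3 also moved in opposite directions in the experiments. Every shPrmt1 library was above shControl, by 0.24 on the log2 scale, whereas every MS023 library was below Vehicle, at -0.52. The GSK3368715 libraries were each below the mean of Vehicle, at -0.09, although the groups overlapped. Neither difference between the experiments was tested. The shPrmt1 and GSK3368715 values of Tnfaip3 did not pass the test on their own (adjusted p = 0.116 and 0.419).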

How the results depend on the processing

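For the 8 tested genes of the 9, 343 results were recomputed under settings other than a left-out library, of which 337 kept their direction and side of the threshold, 3 lost a call, 3 gained one and none reversed. With 1 library left out, 238 of 264 did, 17 lost a call, 5 gained one and 4 reversed. For the other named genes the numbers were 961 of 1011 (30 lost, 15 gained, 5 reversed) and 656 of 768 (76, 13 and 23). The cause was not tested unless fewer libraries or genes entered the fit.

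Of the 9 genes, 5, 5, 4 and 0 were called in shPrmt1, MS023, GSK3368715 and GSK3368715 against MS023. A further requirement of at least 1 on the log2 scale left 2, 1, 1 and 0 of them, and 275, 365, 114 and 4 of all 1684, 3625, 1254 and 67 genes called. Leaving out a library gave 4 to 6, 4 to 6, 3 to 6 and 0 of the 9. Over all genes it gave 652 (without shControl replicate 1) to 2472 (without shPrmt1 replicate 2) for shPrmt1, 2409 (without MS023 replicate 2) to 3726 for MS023, 586 (without Vehicle replicate 3) to 1274 for GSK3368715, and 2 (without MS023 replicate 1) to 114 (without Vehicle replicate 2) between the inhibitors. With only the 2 groups in the fit, GSK3368715 had 597 genes called. Between the inhibitors, 38 genes were called with no filter, 8 without the variance trend and 377 with DESeq2. The same total in every library changed the higher share of those calls from 61.2% to 46.8%.

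With the replicate number as a block, 2671, 3219, 860 and 4 genes and 6, 5, 4 and 0 of the 9 were called, the gain being Mlkl in shPrmt1 (-0.19, adjusted p = 0.0486). Same-numbered shControl and shPrmt1 libraries correlated at 0.061, 0.116 and 0.081 in their deviations from the group means, each best with its own number, which is a hint from the data and not the design, and the inhibitor libraries did not do so throughout. The numbers were therefore not taken to pair the samples.

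Reversals were among differences that were not called. With the same total in every library, Dpp8 in shPrmt1 became 0.0036, Nlrp3 with MS023 0.017 (0.00075 at the same upper quartile), and Prmt1 and Dpp9 with GSK3368715 0.0025 and 0.0029. With a library left out, the log2 differences in shPrmt1 ran from -0.040 to 0.18 for Tnfrsf1a, -0.16 to 0.15 for Ticam1, -0.57 to 0.38 for Nlrp3 and -0.13 to 0.029 for Dpp8. With MS023 they ran from -0.014 to 0.079 for Ripk1, -0.030 to 0.52 for Casp4, -0.032 to 0.062 for Ticam1 and -0.083 to 0.073 for Nlrp3. With GSK3368715 they ran from -0.039 to 0.031 for Prmt1, -0.081 to 0.011 for Ripk1, -0.079 to 0.0053 for Ticam1, -0.022 to 0.061 for Ninj1, -0.059 to 0.040 for Dpp9 and -0.068 to 0.0020 for Casp9. Between the inhibitors Mlkl ran from -0.0049 to 0.045. Read numbers were low for Zbp1 and Casp4 in the knockdown experiment, and Ripk3 had at most 7 reads in a library of either experiment.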
